A study of Homo sapiens with 12 samples.

Results

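The genes described here encode proteins of neurite and axon growth, namely the collapsin response mediator proteins (CRMPs) CRMP1, DPYSL2, DPYSL3, DPYSL4 and DPYSL5, the stathmins STMN1, STMN2 and STMN4, the growth-associated protein GAP43 and doublecortin (DCX). The 10 genes, of 58174 listed in each of the 2 expression tables, were chosen by the log2 fold change of CRMP1 upon IGF2BP1 knockdown in BE(2)-C cells, together with its gene family and functional relatives. Their values in BE(2)-C are therefore given as a description without a test, and tests are given for Hep-G2 cells and for other genes of the same pathways. The study asked which RNAs depend on the RNA-binding protein IGF2BP1 in cancer cells, and its poly-A RNA sequencing is described here for BE(2)-C, a neuroblastoma-derived line, and Hep-G2, a liver tumor-derived line.

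CRMPs are cytosolic phosphoproteins that bind tubulin and carry semaphorin signals to the cytoskeleton of the growth cone, where CDK5 and GSK3 kinases phosphorylate them. Stathmins bind tubulin and promote the shortening of microtubules, doublecortin binds and stabilizes microtubules in migrating neurons, and GAP43 is a membrane protein of the growth cone that binds calmodulin. Neuroblastoma arises from the sympathetic nervous system, whose neurons use these proteins as they extend axons, while hepatocytes do not grow neurites.

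Each cell line has 3 control libraries (siC, from cells that received control siRNA) and 3 knockdown libraries (siI1, from cells that received a pool of siRNAs to IGF2BP1), which makes 12 libraries in all. All cells were harvested 72 h after transfection, and the siRNA concentration was higher in BE(2)-C than in Hep-G2. The libraries of a group are biological replicates according to the study's methods. The values are FPKM, reads scaled for gene length and library size, normalized separately in each table, and whole reads per gene could be recovered from them. Reads on genes numbered 12852988 to 14662575 in BE(2)-C siC, 13649325 to 15721210 in BE(2)-C siI1, 13465944 to 15176939 in Hep-G2 siC and 13398903 to 14858343 in Hep-G2 siI1. Of the 12 pairs of libraries within a group, none differed by as little as sampling noise (chi-square per degree of freedom 1.98 to 14.3). In Hep-G2, siI1 library 1 stood apart from siI1 libraries 2 and 3, with a chi-square per degree of freedom of 13.8 and 14.3 against 1.98 between the latter.

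The siRNA target was lower in every siI1 library than in any siC library. In BE(2)-C, the IGF2BP1 level was 21.3, 20.6 and 21.6 FPKM in siC and 4.85, 4.75 and 4.87 FPKM in siI1. In Hep-G2, it was 48.5, 46.6 and 50.8 FPKM in siC and 12.6, 10.7 and 10.7 FPKM in siI1. IGF2BP1 thus fell to 22.8% of the siC mean in BE(2)-C (log2 fold change -2.11, SE 0.05, limma adjusted p = 1.5e-05, lower in 3 of 3 siI1 libraries) and to 23.3% in Hep-G2 (-2.10, SE 0.08, limma adjusted p = 7.8e-06, lower in 3 of 3).

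Fold changes are siI1 over siC, computed as differences of log2(FPKM + 0.1), so that changes of genes with low values are understated. They were estimated with limma, per cell line, for genes that reached 0.1 FPKM in 3 or more of its 6 libraries, and a gene is called changed where its adjusted p is below 0.05. With 3 libraries a group, the smallest two-sided p of an exact permutation test is 0.1, so single genes were tested with limma, which pools the spread over genes.

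CRMP1, a CRMP found mainly in neurons, lies on the minus strand of chromosome 4 (hg38, chr4:5748084-5893086). In BE(2)-C its level was 88.8, 78.2 and 78.9 FPKM in siC and 26.0, 25.3 and 24.8 FPKM in siI1. The siI1 libraries lay close to each other and far below all siC libraries, with 2008 to 7420 reads behind each value. The siI1 mean was 31.0% of the siC mean, with a log2 fold change of -1.68 (SE 0.06). Among 10036 protein-coding genes with a mean of at least 1 FPKM, 15 genes had a lower log2 fold change than CRMP1. In bulk RNA, fewer cells that express a gene and less of its RNA per cell cannot be told apart, which holds for all values given here.

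The promoter sequences of CRMP1, GAP43 and DPYSL3 are shown because CRMP1 and GAP43 were lower and DPYSL3 was higher in siI1 libraries of BE(2)-C. Each is the 250 bases upstream of an annotated start in RefSeq (GRCh38.p14), read 5′ to 3′ on the strand of the gene. For CRMP1, the outermost of 4 annotated starts was used (chr4:5893087-5893336, minus strand), and FPKM per gene do not tell which start was in use. The windows of GAP43 (chr3:115623260-115623509, plus strand) and DPYSL3 (chr5:147510069-147510318, minus strand) are also outermost starts. Capitals mark matches on either strand to any of the motifs searched. These were the E-box, spelled CACGTG, and the GC box, a binding sequence of Sp family factors that is spelled GGGCGG. The CCAAT box was searched by the letters of its name. The TATA box, a core promoter element found in a minority of human genes, was searched as TATAAA. Matches to different motifs do not overlap in these windows.
CRMP1: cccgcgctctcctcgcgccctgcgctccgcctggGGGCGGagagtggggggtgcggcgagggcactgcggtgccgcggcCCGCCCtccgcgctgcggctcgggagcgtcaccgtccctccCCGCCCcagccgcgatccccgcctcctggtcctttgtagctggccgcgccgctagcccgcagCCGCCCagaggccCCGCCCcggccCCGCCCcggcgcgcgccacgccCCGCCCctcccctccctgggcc
GAP43: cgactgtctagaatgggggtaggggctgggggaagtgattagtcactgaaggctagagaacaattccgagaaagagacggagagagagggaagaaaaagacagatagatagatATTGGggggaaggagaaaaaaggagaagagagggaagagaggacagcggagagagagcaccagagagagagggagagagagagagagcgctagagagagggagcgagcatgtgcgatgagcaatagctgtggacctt
DPYSL3: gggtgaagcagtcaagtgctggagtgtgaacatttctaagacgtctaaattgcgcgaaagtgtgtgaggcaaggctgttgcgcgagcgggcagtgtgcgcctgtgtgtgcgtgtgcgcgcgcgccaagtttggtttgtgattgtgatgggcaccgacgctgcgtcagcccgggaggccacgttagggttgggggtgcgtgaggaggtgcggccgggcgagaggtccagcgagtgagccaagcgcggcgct
The CRMP1 window held 7 GC boxes and a GC content of 82.8%, the GAP43 window held 1 CCAAT box at 51.6% GC, and the DPYSL3 window held no match at 62.8% GC. At their other annotated starts, the CRMP1 windows held 1, 5 and 2 GC boxes, the first with 1 E-box. A second DPYSL3 window held 3 GC boxes, so that the counts depend on the start chosen. Of 35116 upstream windows of the same length, 42.6% held a GC box, 32.0% a CCAAT box, 10.7% a TATA box and 6.34% an E-box. The matches describe the letters of these windows and were not tested for binding of any factor.

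The other CRMP genes differed from CRMP1 in size or direction in BE(2)-C. DPYSL3, a CRMP found in neurons and in neuroblastoma, had 68.8, 68.9 and 70.0 FPKM in siC and 86.5, 84.9 and 83.8 FPKM in siI1. All siI1 libraries were above all siC libraries, the opposite of CRMP1, with a log2 fold change of 0.30 (SE 0.04). DPYSL5, a CRMP of developing neurons, had 35.8, 31.3 and 32.6 FPKM in siC and 24.6, 25.8 and 23.9 FPKM in siI1. The groups did not overlap, with siI1 lower (log2 fold change -0.42, SE 0.06). DPYSL2, the widely expressed CRMP that promotes axon formation, had 34.1, 34.0 and 31.7 FPKM in siC and 32.5, 29.7 and 30.3 FPKM in siI1. Its groups overlapped, with a log2 fold change of -0.11 (SE 0.05). DPYSL4, a less abundant CRMP, had 5.75, 6.88 and 6.01 FPKM in siC and 6.15, 5.68 and 4.81 FPKM in siI1, and its groups overlapped too (-0.16, SE 0.11).

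The summed level of the 5 CRMP genes in BE(2)-C was 224 ± 8.04 FPKM (SD, n = 3) in siC and 172 ± 4.07 FPKM in siI1. CRMP1 made up 36.6% ± 1.31 of this sum in siC and 14.8% ± 0.0252 in siI1 (SD over 3 libraries). The share of DPYSL3 was 31.0% ± 1.30 in siC and 49.6% ± 0.384 in siI1. CRMP1 was thus the most abundant CRMP transcript in siC and DPYSL3 in siI1, and neither share overlapped between the groups. DPYSL2 made up 14.9% and 18.0%, DPYSL5 14.8% and 14.4% and DPYSL4 2.78% and 3.23% of the sum in siC and siI1.

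Among the stathmins of BE(2)-C, STMN4 and STMN1 were lower and STMN2 was higher in siI1. STMN4, a neuronal stathmin, had 4.50, 5.19 and 4.56 FPKM in siC and 1.34, 1.5 and 1.40 FPKM in siI1, from 64 to 219 reads per library. All siI1 libraries were below all siC libraries, by a log2 fold change of -1.68 (SE 0.10), and 16 of the 10036 genes ranked had a lower value. STMN2, a stathmin anchored to membranes of the neuronal growth cone, had 166, 183 and 180 FPKM in siC and 265, 259 and 270 FPKM in siI1. It was higher in all siI1 libraries than in any siC library (0.58, SE 0.05), and 498 of the 10036 genes had a higher log2 fold change. STMN1, the stathmin of dividing cells, had 82.0, 87.3 and 78.8 FPKM in siC and 70.8, 64.6 and 68.0 FPKM in siI1, so that siI1 was lower without overlap (-0.29, SE 0.06).

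STMN3, a further neuronal stathmin, is not one of the 10 genes but belongs to the list of microtubule-associated genes and was tested. It rose in both lines, from 213, 209 and 195 FPKM to 274, 257 and 267 FPKM in BE(2)-C (log2 fold change 0.37, SE 0.05, limma adjusted p = 0.0026, 3 of 3 siI1 libraries higher). In Hep-G2 it rose from 5.06, 6.36 and 5.48 FPKM to 14.7, 17.1 and 17.1 FPKM (1.52, SE 0.10, limma adjusted p = 6.2e-05, 3 of 3 higher). With STMN3 included, the stathmin sum in BE(2)-C was 470 ± 13.8 FPKM in siC and 600.04 ± 15.1 FPKM in siI1 (SD, n = 3). STMN2 made up 37.6% ± 1.78 of it in siC and 44.1% ± 0.653 in siI1, STMN1 17.6% ± 0.393 and 11.3% ± 0.262, and STMN4 1.01% ± 0.0530 and 0.236% ± 0.0201. The share of STMN3 was 43.8% ± 1.70 and 44.4% ± 0.414, a difference smaller than its spread between replicates.

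**Figure D1:**
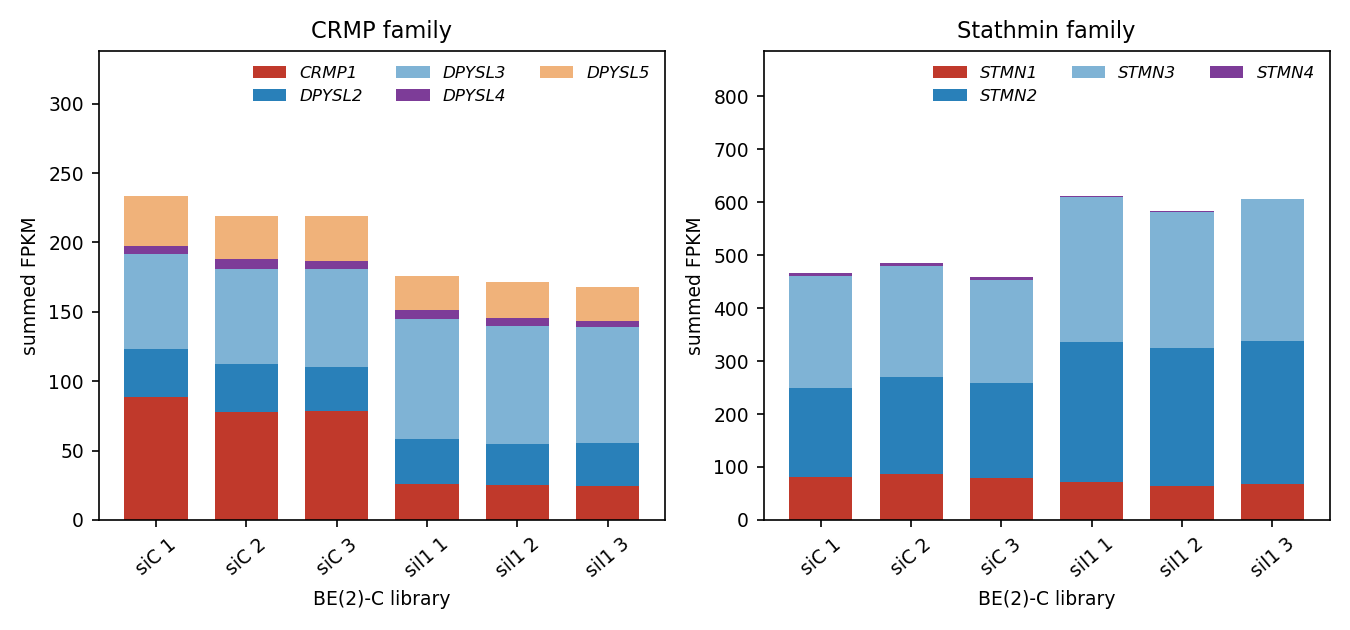
Summed FPKM of the CRMP genes (left) and of the stathmin genes with STMN3 (right) in each BE(2)-C library, stacked by gene, with the siC and siI1 libraries on the horizontal axis and linear vertical axes that start at 0. The CRMP1 segment makes up 36.6% of the siC bars and 14.8% of the siI1 bars on average, and the stathmin bars have a mean of 470 FPKM in siC and 600.04 FPKM in siI1.

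GAP43, on the plus strand of chromosome 3 (chr3:115623510-115721490), had 148, 165 and 144 FPKM in siC and 116, 114 and 112 FPKM in siI1 of BE(2)-C. All siI1 libraries were lower than all siC libraries (log2 fold change -0.41, SE 0.06). DCX, on the minus strand of chromosome X (chrX:111293779-111412429), had 2.03, 1.68 and 1.84 FPKM in siC and 2.76, 2.92 and 2.73 FPKM in siI1, from 220 to 435 reads. It was higher in all siI1 libraries (0.58, SE 0.10), and 504 of the 10036 genes had a higher log2 fold change.

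IGF2BP1 is known for shielding mRNAs from microRNAs of the let-7 family, so the annotated 3′ ends of the 10 mRNAs were searched for the reverse complement of the let-7 seed (CTACCTC). Mature let-7a-5p and the DCX matches are shown because DCX was the only gene of the 10 with a match. Capitals mark the seed, bases 2 to 8, and the matching letters.
let-7a-5p: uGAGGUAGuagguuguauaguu
DCX match at position 2784: atctcttgcttgttcCTACCTCctga
DCX match at position 5521: tggctttttgccgctCTACCTCttgt
Positions count from the first base of the annotated 3′UTR of DCX, which at 7936 nt was longer than that of 97.0% of the 12509 protein-coding genes compared. Of these genes, 13.8% had at least 1 match, at a median 3′UTR length of 1809 nt. MicroRNA levels were not analysed here, and binding at the matches was not tested.

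Of the 10 genes in BE(2)-C, 5 had all siI1 libraries below all siC libraries, 3 had all siI1 libraries above, and 2 overlapped. Groups that did not overlap were found for 45.0% of all 18656 tested genes, and since BE(2)-C values chose the genes, nothing is read from the count. Ordered by FPKM in siC, the genes ran from STMN2 (177 ± 8.95, SD, n = 3) and GAP43 (152 ± 11.3) over STMN1 (82.7 ± 4.27), CRMP1 (81.9 ± 5.93), DPYSL3 (69.2 ± 0.688), DPYSL2 (33.3 ± 1.39) and DPYSL5 (33.3 ± 2.32) to DPYSL4 (6.21 ± 0.591), STMN4 (4.75 ± 0.379) and DCX (1.85 ± 0.173). STMN1 and CRMP1 did not differ beyond their spread, nor did DPYSL2 and DPYSL5. In siI1, CRMP1 (25.4 ± 0.590) took its place between DPYSL2 (30.8 ± 1.46) and DPYSL5 (24.8 ± 0.987), within the spread of the latter, and STMN4 (1.41 ± 0.0848) dropped below DCX (2.80 ± 0.102). In siC, STMN2 and GAP43 were more abundant than 98.2% and 97.9% of 12600 tested protein-coding genes.

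**Figure D2:**
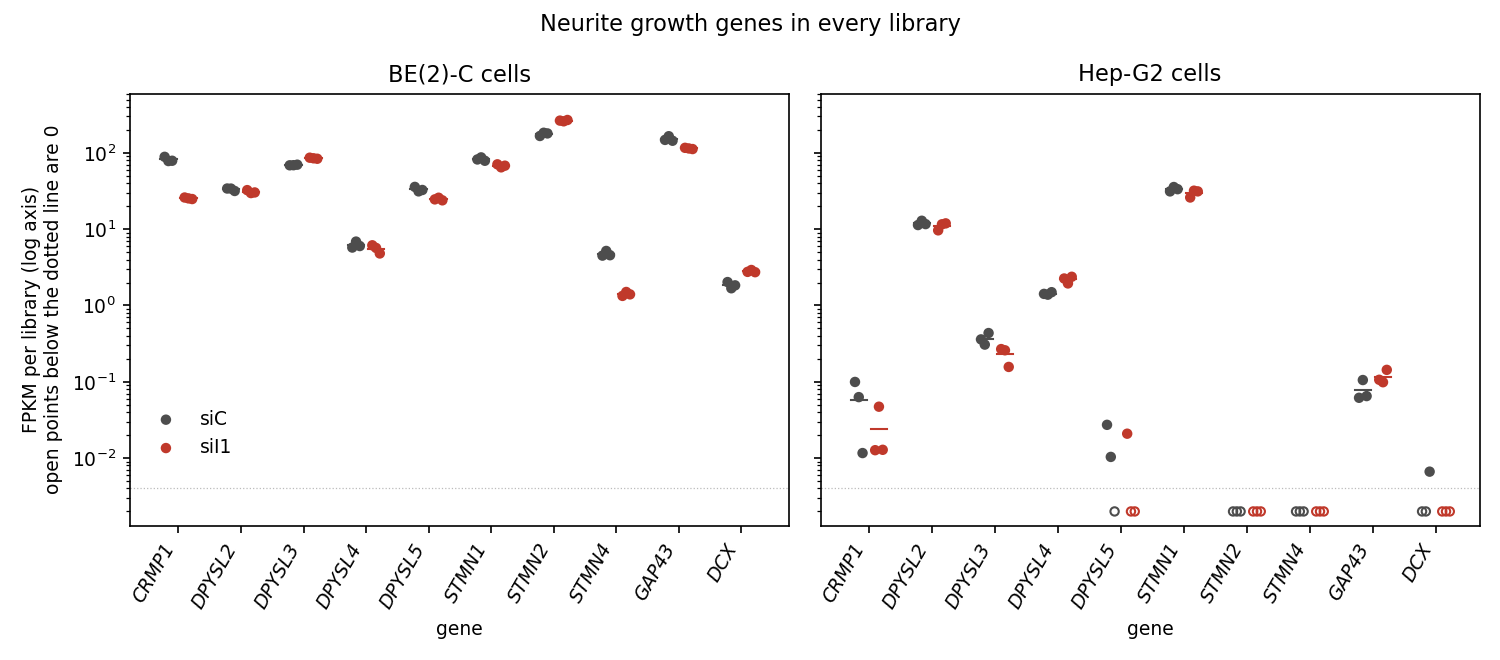
FPKM of the 10 genes in every library of BE(2)-C (left) and Hep-G2 (right), tables that were normalized separately, with genes on the horizontal axis and a log vertical axis. Points are libraries in dark grey for siC and red for siI1, dashes are means of groups with no 0, and open points below the dotted line are listed at 0, as for STMN2 and STMN4 in all 6 Hep-G2 libraries, while STMN2 lies between 166 and 270 FPKM in BE(2)-C.

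In Hep-G2, most of these genes had few reads or none. STMN2 and STMN4 had 0 reads in all 6 libraries, which allows levels of up to 0.0818 to 0.0950 FPKM for STMN2 and 0.0587 to 0.0681 FPKM for STMN4 at 3 reads per library. Such floors cover counting error only. CRMP1 had 1 to 9 reads per library, from 0.0116 to 0.0995 FPKM in siC and from 0.0127 to 0.0472 FPKM in siI1. DPYSL5 had 0 to 3 reads, and DCX had a single read, in siC library 3. A change of these 5 genes was not detectable at this depth, and they did not pass the filter.

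The other 5 genes were tested in Hep-G2, a contrast not used to choose them, and 1 was called. DPYSL4 had 1.42, 1.39 and 1.49 FPKM in siC and 2.26, 1.95 and 2.38 FPKM in siI1, from 60 to 101 reads per library. The siI1 values all exceeded the siC values, and DPYSL4 rose with a log2 fold change of 0.58 (SE 0.13, limma adjusted p = 0.0093, 3 of 3 siI1 libraries higher). Without siI1 library 1, which stood apart, the log2 fold change was 0.56 (limma adjusted p = 0.019). Over all 16 alternative settings it lay between 0.39 and 0.67, with limma adjusted p from 0.0049 to 0.045. Against this count of 1 in 5, 44.8% of all 19436 genes tested in Hep-G2 were called, 23.0% lower and 21.9% higher, so that the share was not above that of all genes.

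STMN1, the most abundant of the 10 genes in Hep-G2, had 31.3, 35.7 and 33.4 FPKM in siC and 26.0, 32.0 and 31.3 FPKM in siI1, with overlapping groups (log2 fold change -0.17, SE 0.09, limma adjusted p = 0.18). DPYSL2 had 11.3, 12.9 and 11.7 FPKM in siC and 9.66, 11.6 and 11.9 FPKM in siI1, also with overlap (-0.12, SE 0.10, limma adjusted p = 0.37). Both genes missed the threshold with the scaling of the authors but passed it when, as an alternative, all libraries were set to an equal sum of FPKM, STMN1 at -0.34 (limma adjusted p = 0.0043) and DPYSL2 at -0.28 (limma adjusted p = 0.015). That scaling shifted the median log2 fold change of all Hep-G2 genes by -0.16, and of the genes called 35.4% were then higher in place of 48.8%. Without siI1 library 1, STMN1 was at -0.08 (limma adjusted p = 0.33). Over all 16 settings the adjusted p from limma lay between 0.0043 and 0.52 for STMN1 and between 0.015 and 0.86 for DPYSL2.

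DPYSL3 had 0.360, 0.307 and 0.435 FPKM in siC and 0.268, 0.259 and 0.157 FPKM in siI1 of Hep-G2. The siI1 libraries were all below the siC libraries, but the difference did not pass the test (log2 fold change -0.52, SE 0.27, limma adjusted p = 0.17). GAP43 had 2 to 4 reads per library and passed the filter by a small margin, with a log2 fold change of 0.29 (SE 0.31, limma adjusted p = 0.50). Of the 5 genes tested, groups did not overlap for 2, DPYSL3 and DPYSL4, beside 55.8% of all tested genes. In Hep-G2 the CRMP sum was 13.8 ± 0.742 FPKM in siC and 13.5 ± 1.16 FPKM in siI1 (SD, n = 3), of which DPYSL2 made up 86.4% and 81.7%. The stathmin sum with STMN3 was 39.1 ± 2.86 and 46.0 ± 4.63 FPKM, with STMN1 at 85.6% and 64.6% and STMN3 at 14.4% and 35.4%.

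**Figure D3:**
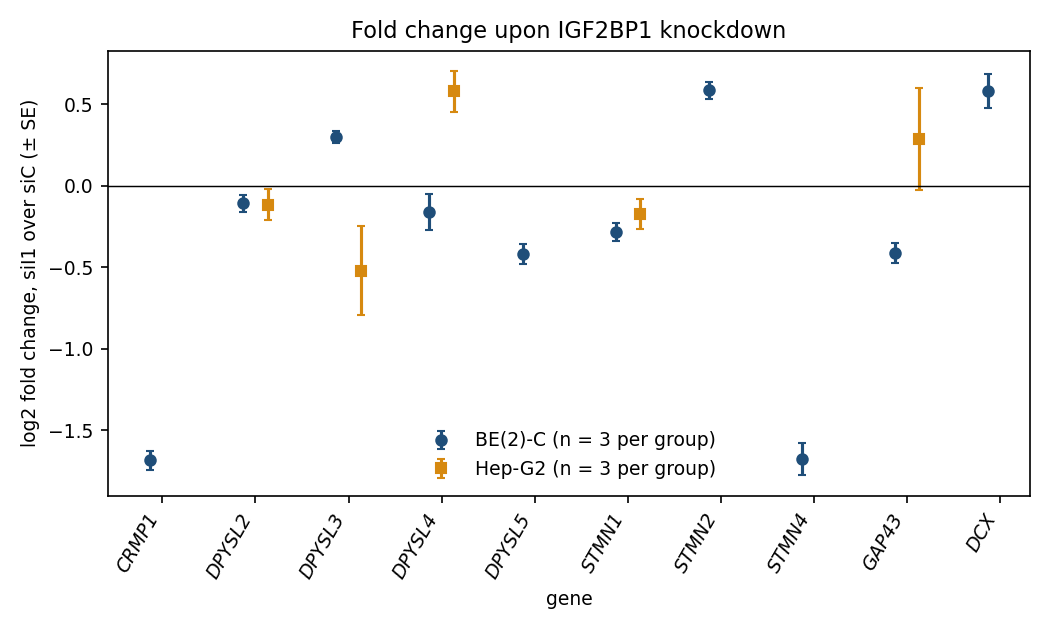
Log2 fold change of siI1 over siC with its SE for each of the 10 genes, in BE(2)-C (circles) and, for the 5 genes tested there, in Hep-G2 (squares), with genes on the horizontal axis. In BE(2)-C, CRMP1 and STMN4 lie at -1.68 and STMN2 and DCX at 0.58, and in Hep-G2 DPYSL4, at 0.58, was the gene called.

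Reads of overlapping genes could affect these values, since the strand setting used in counting was not given in the sources used here, although the libraries were strand-specific. EVC overlaps CRMP1 on the opposite strand by 66222 nt. It had 2 to 8 reads per library in BE(2)-C, against 2008 or more for CRMP1, and 2.48 ± 0.435 FPKM in siC and 2.92 ± 0.431 FPKM in siI1 of Hep-G2 (SD, n = 3, limma adjusted p = 0.30). PNMA2 overlaps DPYSL2 by 62 nt on the opposite strand. In BE(2)-C it fell from 11.6 ± 0.317 to 8.85 ± 0.265 FPKM (log2 fold change -0.39, SE 0.05, limma adjusted p = 0.0021, 3 of 3 siI1 libraries lower). The levels of both pairs are uncertain to the extent that reads were shared.

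The protein-coding genes with the pattern most like CRMP1 over the 12 libraries included SLC18A3, PRSS12, OLFM1 and KIF1A, by the smallest root mean square difference of log2 values centred on each gene's mean, among 12599 genes compared. The 2 tables were normalized separately, and each of these genes was near 0 in Hep-G2, which CRMP1 was too. SLC18A3, the vesicular acetylcholine transporter, was closest, at 0.24. Its level was 60.7, 56.9 and 56.9 FPKM in siC and 15.1, 17.8 and 18.4 FPKM in siI1 of BE(2)-C. PRSS12, a neuronal serine protease (0.26), had a mean of 53.6 FPKM in siC and 22.6 FPKM in siI1, and OLFM1, a secreted protein of the nervous system (0.29), 44.9 and 15.01 FPKM. KIF1A, a motor of axonal vesicle transport (0.51), had 32.5 and 23.5 FPKM. The likeness in level between lines makes up part of the measure, and shared regulation was not tested.

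Genes that act with the 10 proteins were followed in 70 genes of 5 lists. In BE(2)-C, 20 of 68 tested genes were lower and 20 higher (58.8% called, against 28.2% of all tested genes, 14.8% lower and 13.3% higher). In Hep-G2, 22 of 52 tested genes were lower and 6 higher (53.8% called, against 44.8% of all). The lists were chosen with earlier results of these data known, and all tested genes were not matched to them by level. These shares are therefore a description, and no enrichment is read from them. The median log2 fold change of the listed genes was -0.03 in BE(2)-C and -0.17 in Hep-G2, beside 0.02 and 0.01 over all tested genes. Calls in BE(2)-C numbered 25 without the mean-variance trend and 24 without siI1 library 3, and 25 without siI1 library 2.

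Among CRMP kinases and semaphorin receptors, 6 of 16 tested genes were lower and 4 higher in BE(2)-C (median log2 fold change -0.03), and 6 of 14 were lower and 1 higher in Hep-G2 (median -0.30). With median centring in place of the scaling of the authors, 5 genes of this list were lower and 2 higher in Hep-G2. PLXNA2, a plexin that transmits semaphorin signals, fell in both lines. It went from 7.90, 7.05 and 8.12 FPKM to 3.94, 3.78 and 3.66 FPKM in BE(2)-C (log2 fold change -1.0, SE 0.08, limma adjusted p = 0.00032) and from 2.91 ± 0.0312 to 1.28 ± 0.149 FPKM (SD) in Hep-G2 (-1.13, SE 0.12, limma adjusted p = 0.00043), lower in 3 of 3 siI1 libraries of each line. PLXNA4, another plexin, fell in BE(2)-C (-0.71, SE 0.07, limma adjusted p = 0.00076, 3 of 3 lower), as did GSK3A, a kinase of CRMPs (-0.42, SE 0.08, limma adjusted p = 0.0072, 3 of 3 lower), and CDK5R2, an activator of CDK5 (-0.31, SE 0.07, limma adjusted p = 0.019, 3 of 3 lower). The call of CDK5R2 was lost without the mean-variance trend (limma adjusted p = 0.062) and without siI1 library 1 (0.058) or 2 (0.064). In Hep-G2, ROCK2, a kinase of CRMPs, fell (-1.55, SE 0.14, limma adjusted p = 0.00022, 3 of 3 lower), as did FYN, a tyrosine kinase (-0.88, SE 0.17, limma adjusted p = 0.0052, 3 of 3 lower), while FES, a tyrosine kinase, rose (0.84, SE 0.10, limma adjusted p = 0.00074, 3 of 3 higher). The higher genes in BE(2)-C, named after their values were seen, were CDK5R1, GSK3B, DYRK2 and NRP1. Without the mean-variance trend 3 genes of this list were lower and 1 higher in BE(2)-C, without the filter on low values it was 1 higher, without siI1 library 1 or 2 it was 3 lower, and leaving out any 1 library gave 0 (without siC library 2, siI1 library 2 or siI1 library 3) to 2 higher.

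Among microtubule-associated proteins, 12 of 23 tested genes rose and 1 fell in BE(2)-C (median log2 fold change 0.28), against 2 higher and 7 lower of 17 in Hep-G2 (median -0.04). The BE(2)-C count of higher genes was 9 to 15 over the settings that kept the threshold and 13 under both other scalings. MAP6, which stabilizes microtubules in neurons, rose from 5.05, 4.97 and 5.47 FPKM to 8.11, 7.70 and 7.77 FPKM in BE(2)-C (0.60, SE 0.06, limma adjusted p = 0.00095, 3 of 3 higher). MAP1B, a protein of growing axons, rose from 31.9, 33.6 and 37.0 FPKM to 46.1, 49.1 and 47.4 FPKM (0.48, SE 0.06, limma adjusted p = 0.0020, 3 of 3 higher). MAPRE2, which binds the ends of growing microtubules, rose in BE(2)-C (0.42, SE 0.05, limma adjusted p = 0.0020, 3 of 3 higher) and fell in Hep-G2 (-0.47, SE 0.06, limma adjusted p = 0.00063, 3 of 3 lower). MAP7, which recruits kinesin to microtubules, rose in BE(2)-C (0.64, SE 0.09, limma adjusted p = 0.0026, 3 of 3 higher). NDE1, a partner of dynein, was the gene that fell in BE(2)-C (-0.49, SE 0.14, limma adjusted p = 0.036, 3 of 3 lower). Its call was lost without the filter, without the mean-variance trend and without siC library 1 or 2 or siI1 library 2 or 3 (limma adjusted p from 0.058 to 0.11). The genes higher in Hep-G2 were STMN3 and, named after its values were seen, CAMSAP3. The BE(2)-C call of CAMSAP2 (0.28, limma adjusted p = 0.041, 3 of 3 higher), which caps microtubule minus ends, was lost in the same settings and with an equal sum of FPKM (limma adjusted p from 0.057 to 0.13). In Hep-G2, 4 genes of this list were lower without siC library 1, siC library 3 or siI1 library 3.

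Among tubulins, the subunits that CRMPs and stathmins bind, 6 of 12 tested genes fell and 1 rose in BE(2)-C (median log2 fold change -0.22), and 4 of 11 fell in Hep-G2 (median -0.18). With an equal sum of FPKM, 7 were lower in each line, and without siI1 library 1, TUBB4B was called higher in Hep-G2 (0.22, limma adjusted p = 0.028). Median centring gave 1 higher tubulin gene in Hep-G2, where 0 were called higher with the scaling of the authors. TUBA1B, the most abundant tubulin gene in siC of BE(2)-C, fell there from 1264, 1139 and 1132 FPKM to 843, 815 and 783 FPKM (-0.53, SE 0.07, limma adjusted p = 0.0019, 3 of 3 lower). In Hep-G2, TUBA1B fell from 259, 296 and 273 FPKM to 162, 189 and 190 FPKM (-0.61, SE 0.09, limma adjusted p = 0.0016, 3 of 3 lower). TUBB6 fell in both lines, by -0.45 (SE 0.05, limma adjusted p = 0.00083) in BE(2)-C and -1.22 (SE 0.09, limma adjusted p = 9.7e-05) in Hep-G2, with 3 of 3 libraries lower in each. TUBB4A was the tubulin gene that rose in BE(2)-C, from 8.52 ± 1.23 FPKM to 13.8 ± 1.99 FPKM (SD, log2 fold change 0.69, SE 0.13, limma adjusted p = 0.0092, 3 of 3 higher), and was named after its values were seen. The summed tubulin level in BE(2)-C was 2790, 2520 and 2481 FPKM in siC and 2068, 1989 and 1934 FPKM in siI1, without overlap.

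Among growth cone membrane proteins, 6 of 13 tested genes fell and 3 rose in BE(2)-C (median log2 fold change -0.14), and 5 of 9 fell and 3 rose in Hep-G2 (median -0.36). BASP1, a calmodulin-binding membrane protein often described beside GAP43, fell in BE(2)-C from 215, 232 and 228 FPKM to 146, 146 and 150 FPKM (-0.61, SE 0.05, limma adjusted p = 0.00031, 3 of 3 lower). PALM, a lipid-anchored membrane protein, rose in Hep-G2 from 6.71, 6.14 and 6.13 FPKM to 23.9, 26.96 and 28.6 FPKM (2.05, SE 0.08, limma adjusted p = 9.3e-06, 3 of 3 higher), and fell in BE(2)-C (-0.41, SE 0.09, limma adjusted p = 0.015, 3 of 3 lower). NRCAM, a neuronal adhesion molecule, rose in BE(2)-C (0.42, SE 0.06, limma adjusted p = 0.0029, 3 of 3 higher) and fell in Hep-G2 (-1.04, SE 0.18, limma adjusted p = 0.0036, 3 of 3 lower). RTN4, the axon growth inhibitor Nogo, fell in both lines (-0.25, SE 0.04, limma adjusted p = 0.0052 in BE(2)-C and -0.39, SE 0.05, 0.00083 in Hep-G2, 3 of 3 lower in each). CALM3, which encodes calmodulin, was called lower in BE(2)-C (-0.25, SE 0.06, limma adjusted p = 0.017, 3 of 3 lower). Its call was lost without the mean-variance trend (limma adjusted p = 0.063) and without siI1 library 2 or 3 (0.063 and 0.064). Of the list, 3 genes were lower in BE(2)-C without the trend or siI1 library 3, and 1 was higher without the trend, siC library 3 or siI1 library 3. Among the ELAV-like RNA-binding proteins, of which neuronal members bind GAP43 mRNA, ELAVL3 was the gene of 4 tested that fell in BE(2)-C (-0.51, SE 0.04, limma adjusted p = 0.00029, 3 of 3 lower), and the 1 gene tested in Hep-G2 was not called with the scaling of the authors, but was lower with an equal sum of FPKM.

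**Figure D4:**
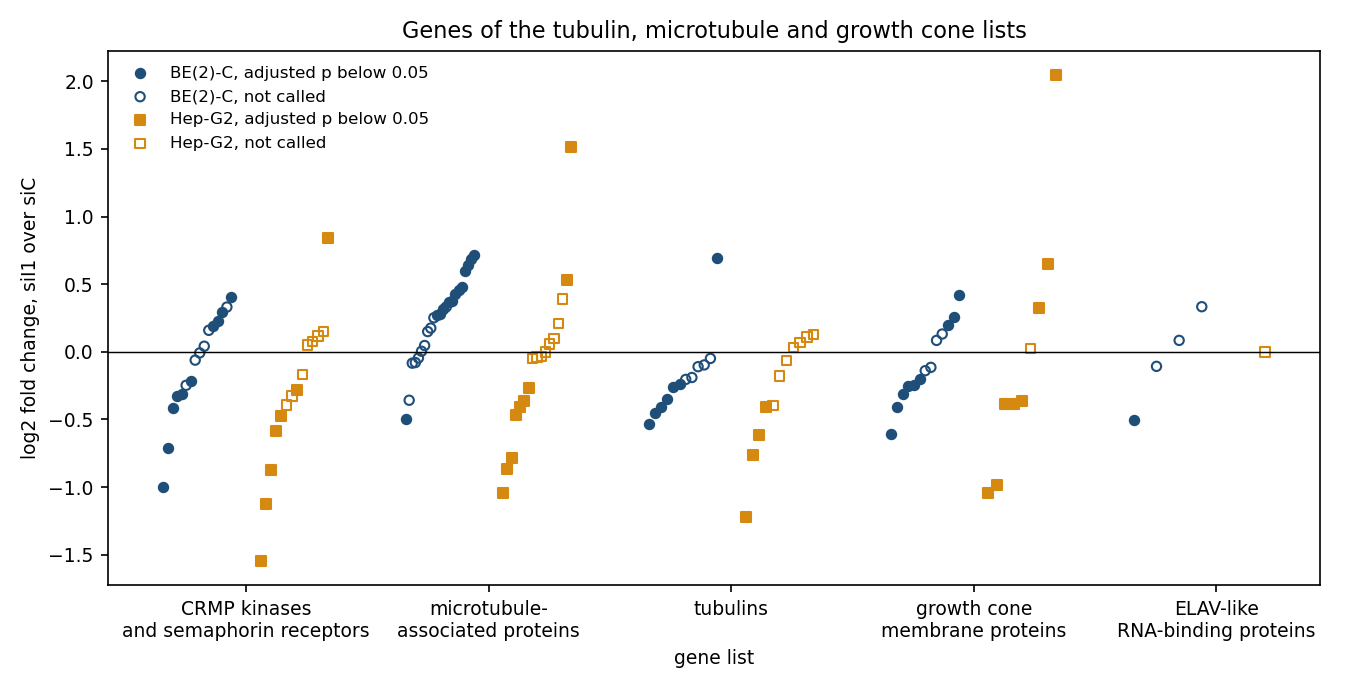
Log2 fold change of siI1 over siC for each tested gene of the 5 lists, in order of value within each list, for BE(2)-C (blue circles) and Hep-G2 (orange squares), with filled points for an adjusted p from limma below 0.05. Of the microtubule-associated proteins, 12 of 23 were called higher in BE(2)-C and 2 of 17 in Hep-G2, where STMN3 lies at 1.52 and PALM, in the growth cone list, at 2.05.

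The difference between the lines was tested for the 52 listed genes measured in both, as BE(2)-C minus Hep-G2. With the normal distribution fixed for this test, 26 were called (50.0%, against 46.9% of all 15362 genes tested in both lines). A t distribution that takes account of the few libraries behind each SE was added after seeing the data and called 24 of the listed genes, against 40.4% of all. The normal p-values are too small for SEs from 6 libraries a line, so adjusted p-values given for differences of limma estimates are those of the t distribution. PALM differed most by p, with a difference of -2.45 (SE 0.12 by limma, adjusted p = 1.2e-08), followed by MAPRE2 at 0.89 (SE 0.08 by limma, adjusted p = 1.4e-06). STMN3, higher in both lines, rose less in BE(2)-C, by a difference of -1.14 (SE 0.12 by limma, adjusted p = 4e-05). TUBB was called with the normal distribution (adjusted p = 0.021 from limma estimates) but not with the t distribution (0.052). PLXNA2 did not differ between the lines beyond its error (0.13, SE 0.14 by limma, adjusted p = 0.50).

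Markers of the cell lines and of proliferation were read in the same libraries. Of all tested genes, 28.2% were called in BE(2)-C and 44.8% in Hep-G2. Beside those shares, the counts of these short marker lists in both lines are a description. Of 7 adrenergic neuroblastoma markers in BE(2)-C, 4 fell and 2 rose, while their summed level was 1977, 1794 and 1771 FPKM in siC and 1892, 1806 and 1774 FPKM in siI1, with overlap. CHGA, the most abundant, rose from a mean of 790 ± 54.0 to 1034 ± 50.9 FPKM (SD, n = 3), and TH rose as well (0.61), while those that fell included HAND2 (-0.73), PHOX2A (-0.40) and DBH (-0.37), all in 3 of 3 siI1 libraries. None of the 7 was at 0. Of 6 proliferation markers in BE(2)-C, 5 fell, against 3 under either other scaling, without the mean-variance trend and without siC library 2, siC library 3, siI1 library 1 or siI1 library 3, and the sum was 592, 615 and 585 FPKM in siC and 495, 493 and 477 FPKM in siI1, with PCNA the most abundant. Of 8 mesenchymal and Schwann cell markers, 2 of 5 tested rose (FN1 and SNAI2, the latter not without siI1 library 3), at sums of 51.0, 49.9 and 45.5 FPKM in siC and 51.6, 46.2 and 52.1 FPKM in siI1. VIM was the most abundant of them, and PRRX1 and SOX10 had at most 0.0386 FPKM. The 5 hepatic markers summed to at most 0.228 FPKM in BE(2)-C, with AFP at 0 in all libraries. Whether adrenergic or proliferation state had a part in the values of CRMP1 and the other genes was not tested.

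In Hep-G2, 3 of 5 hepatic markers rose (2 without the filter on low values, where ALB had a limma adjusted p = 0.073) and 2 fell, with sums of 6911, 6979 and 6866 FPKM in siC and 11451, 13106 and 13262 FPKM in siI1, and ALB the most abundant. Of the proliferation markers, 2 fell and 2 rose (1 without the mean-variance trend, with an equal sum of FPKM, without the filter on low values, or without siC library 1, siC library 3, siI1 library 2 or siI1 library 3), with sums of 293, 300.4 and 286 FPKM in siC and 315, 337 and 336 FPKM in siI1, and PCNA the most abundant. Of the mesenchymal and Schwann cell markers, 3 of 5 tested fell (1 without siC library 1 or 2), with sums of 760, 652 and 738 FPKM in siC and 459, 368 and 378 FPKM in siI1, nearly all of it FN1, and SOX10 at 0. The adrenergic markers summed to at most 0.241 FPKM, with HAND2 and CHGA at 0. Their part in the value of DPYSL4 was not tested.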

How the data were processed

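Poly-A RNA of 12 libraries was analysed, grouped by the labels into siC and siI1 with 3 libraries each in BE(2)-C and Hep-G2. The authors trimmed reads with cutadapt 1.14, aligned them to hg38 with HISAT2 2.1.0 and summarized them per gene with featureCounts 1.5.3 on an Ensembl annotation, and SAMtools 1.5 is also listed in the submitters' processing notes. The authors deposited a separate table for each cell line with gene length and FPKM on library sizes scaled by TMM in edgeR 3.30.3. No unit stands in the header, and FPKM was inferred because deposited values times gene length fell on whole reads in 100% of cases (tolerance 0.01 reads). Deposited columns of logFC, pValue and FDR, which hold the authors' comparison of siI1 with siC, were not used.

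Genes with at least 0.1 FPKM in at least 3 of 6 libraries were fitted with limma 3.58.1 (R 4.3.3, mean-variance trend) on log2(FPKM + 0.1) per table, with Benjamini-Hochberg adjustment over all tested genes and a two-sided threshold of 0.05. The steps were checked on simulated data. The difference between lines was divided by the root of the summed squared SEs and referred to a normal distribution, and, as an alternative added after seeing the data, to a t distribution. Alternatives covered pseudocount, filter, trend, scaling, replicate block, left-out libraries, threshold and limma-voom on recovered reads. Other software was Python 3.11.15 with pandas 2.3.3, SciPy 1.17.1, NumPy 2.4.6 and Matplotlib 3.10.9 and, in R, the package data.table (1.17.8). Promoter sequences are from RefSeq (GRCh38.p14), where 7 of the 10 genes matched a promoter entry. Gene positions, overlaps and 3′UTR sequences are from the GENCODE annotation, and the let-7a-5p sequence is from a separate set of microRNA sequences.

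The genes and lists were chosen with earlier results of these data known. Named genes are the 10 genes, IGF2BP1, all 26 markers, up to 4 called genes with the smallest p per list and line (27 genes, of which those not named in the text are summarized in the counts), genes overlapping 1 of the 10, and the 5 most like CRMP1. Values of some genes that this rule names are not reported here, though list counts and sums include them. Reads per library set the precision of low values.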

Additional observations from a re-analysis of the deposited data

Results flagged for a closer look

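The log2 fold change of siI1 over siC differed between the cell lines for 14 of 20 listed genes that were named by rule and tested in both, by the test of the difference itself with a normal distribution, against 46.9% of all genes tested in both. These genes were named for the smallest p in either line, which favours a difference. Of the 14, 9 had opposite signs, 3 of them (MAP1B, FYN and TUBB4B) with a value in one line that was within its SE of 0 and not called. Differences are BE(2)-C minus Hep-G2, and each line's own value follows as BE(2)-C against Hep-G2. PALM differed by -2.45 (-0.41 against 2.05), FES by -1.16 (-0.32 against 0.84) and CALM3 by -0.90 (-0.25 against 0.65). MAPRE2 differed by 0.89 (0.42 against -0.47), NRCAM by 1.46 (0.42 against -1.04) and CAMSAP2 by 1.06 (0.28 against -0.79). MAP1B differed by 0.53 (0.48 against -0.05), FYN by 0.92 (0.04 against -0.88) and TUBB4B by -0.51 (-0.40 against 0.11). With the same sign in both lines, STMN3 differed by -1.14 (0.37 against 1.52) and ROCK2 by 1.49 (-0.06 against -1.55). TUBB6 differed by 0.77 (-0.45 against -1.22), TUBA1A by 0.56 (-0.20 against -0.76) and TUBB by -0.28 (-0.35 against -0.06). The values of ROCK2 in BE(2)-C (SE 0.10) and of TUBB in Hep-G2 (SE 0.09) were within their SE of 0 and not called. The sign of these values is therefore not settled. The call of FES in BE(2)-C was lost in 8 settings (limma adjusted p from 0.051 to 0.086). With the t distribution added after seeing the data, TUBB was not called (adjusted p = 0.052 from limma estimates), and the other differences had an adjusted p of at most 0.0082 from limma estimates, against a share of 40.4% called among all genes.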

How the results depend on the processing

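The log2 fold changes of the 10 genes in BE(2)-C kept 1 sign in each of 16 alternative settings, with CRMP1 between -1.72 and -1.63. No called value of a named gene reversed, while of 92 gene and line pairs with a test 12 lost and 9 gained a call in at least 1 setting that kept the threshold. At an adjusted p below 0.01, limma called 5721 of 8713 genes in Hep-G2, 2614 of 5252 in BE(2)-C and 21 of 40 listed genes in BE(2)-C, as a stricter threshold must lower counts. Leaving out 1 library gave 3431 (without siI1 library 3, and 3487 without siI1 library 2) to 4455 genes in BE(2)-C, and 24 to 34 listed genes there. Without the mean-variance trend, 25 listed genes were called in BE(2)-C. With an equal sum of FPKM, 3 of the 10 genes were called in Hep-G2 in place of 1. A replicate block gave 2 of the 10 genes called in Hep-G2 (STMN1 with adjusted p = 0.049 by limma), and 8820 and 4672 genes in Hep-G2 and BE(2)-C. Deviations of same-numbered libraries correlated at -0.01 to 0.06, so no effect shared by same-numbered libraries was seen. Whether such samples were handled together is given neither by the labels nor by the study's methods. limma-voom on recovered reads called 9398 and 6530 genes. The cause of the changes with trend, scaling and block was not tested. Low read numbers limit the values of STMN4 and DCX in BE(2)-C and DPYSL4 in Hep-G2.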
